A study of Mus musculus with 16 samples.

Results

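The genes described here are 9 members of the S100 family of calcium-binding proteins, S100a1, S100a4, S100a6, S100a8, S100a9, S100a10, S100a11, S100a13 and S100a16, chosen by symbol from the 49568 gene symbols of a single count table. RNA was sequenced from the deep digital flexor tendon of male C57BL/6J (C57) and MRL/MpJ (MRL) mice aged 9 to 11 weeks, either uninjured or 7 days after a partial laceration across 50% of the tendon of the hind paw. Each of the 4 groups, C57 uninjured, C57 injured, MRL uninjured and MRL injured, held 4 libraries, and per the study methods each library came from the single tendon of a separate animal. The labels name no engineered allele and no drug in either strain. Sheath and peritendinous tissue was left on the tendons, injured and uninjured alike. In such bulk tissue, fewer cells of a type and less RNA per cell cannot be told apart, and this holds for every value below.

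Total counts ran from 12552424 to 23741648 per library, and every C57 and uninjured MRL library lay below the 4 injured MRL libraries. The 12 tenocyte and fibroblast markers, such as Scx, Tnmd and Col1a1, summed to between 34841 and 120800 CPM (counts scaled to the TMM-adjusted library size) in the 16 libraries, so the labelled tissue was present in all of them. A few libraries stood apart. In C57 uninjured replicate 4, 12 epidermal markers summed to 79898 CPM, against 799 at most in the other C57 uninjured libraries. In the injured C57 library BI-181, 12 skeletal muscle markers summed to 72742 CPM, against 2171.3 at most in the other injured C57 libraries. In C57 uninjured replicate 3, S100a8 and S100a9 themselves were far above every other library. Members' values are also given without these libraries, or without BI-275 of the injured MRL group, where leaving one out moved them strongly, and the part of these other tissues in the results was not tested.

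S100 proteins are small intracellular proteins built from paired EF-hand calcium-binding loops. Most work as dimers that open a binding face when calcium rises and then dock on annexins, myosins, ion channels or signalling proteins. Some are also released from cells, and S100a8 with S100a9, which neutrophils and monocytes carry in bulk, act outside the cell as alarmins on Tlr4 and Ager (the receptor RAGE). In connective tissue S100a4 is best known as a marker of fibroblasts, while S100a6, S100a10 and S100a11 are abundant in stromal cells.

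All 9 genes lie on mouse chromosome 3 (GRCm38, GENCODE annotation). S100a1, S100a13, S100a16, S100a4, S100a6, S100a8 and S100a9 sit within 185 kb at chr3:90511034-90695721, and S100a11 and S100a10 lie farther along the chromosome within 44.2 kb at chr3:93520488-93564643. RefSeq promoter windows (GRCm38.p6, 250 bases before to 50 bases after the annotated start) were found for 8 of the 9 genes, and S100a10 had no entry. Windows are shown for S100a11, the member that rose in MRL, for S100a4, S100a8 and S100a9, and for the S100a1 and S100a13 pair. Capitals in the first 4 mark the TATA box core (TATAAA), an AP-1 site (TGAGTCA) and a GC box (GGGCGG), searched on both strands. In the S100a13 window capitals mark the 204 bases at chr3:90514281-90514484 that it shares with the window of S100a1, which is transcribed the other way.
S100a11: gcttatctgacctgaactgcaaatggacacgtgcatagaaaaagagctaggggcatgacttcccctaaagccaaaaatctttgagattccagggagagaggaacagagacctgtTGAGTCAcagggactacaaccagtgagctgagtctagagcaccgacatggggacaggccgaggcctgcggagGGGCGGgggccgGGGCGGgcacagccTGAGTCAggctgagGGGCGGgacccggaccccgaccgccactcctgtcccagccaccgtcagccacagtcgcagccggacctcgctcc
S100a4: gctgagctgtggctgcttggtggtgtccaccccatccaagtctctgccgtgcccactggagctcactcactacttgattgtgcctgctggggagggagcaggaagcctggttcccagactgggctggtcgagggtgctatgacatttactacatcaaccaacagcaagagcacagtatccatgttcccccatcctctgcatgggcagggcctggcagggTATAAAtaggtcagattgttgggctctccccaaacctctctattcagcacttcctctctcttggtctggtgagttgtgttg
S100a8: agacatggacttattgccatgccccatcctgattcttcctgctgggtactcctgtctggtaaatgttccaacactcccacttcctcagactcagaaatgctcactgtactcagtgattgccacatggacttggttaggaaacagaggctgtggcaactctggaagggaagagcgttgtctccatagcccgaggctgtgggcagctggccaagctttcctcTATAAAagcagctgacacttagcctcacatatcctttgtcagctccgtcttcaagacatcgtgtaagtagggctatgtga
S100a9: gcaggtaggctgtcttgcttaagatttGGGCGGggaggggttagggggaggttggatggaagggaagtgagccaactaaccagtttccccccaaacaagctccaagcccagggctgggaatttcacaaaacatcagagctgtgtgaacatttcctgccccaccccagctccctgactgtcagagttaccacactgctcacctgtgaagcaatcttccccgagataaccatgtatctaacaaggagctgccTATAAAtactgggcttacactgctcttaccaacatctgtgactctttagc
S100a13: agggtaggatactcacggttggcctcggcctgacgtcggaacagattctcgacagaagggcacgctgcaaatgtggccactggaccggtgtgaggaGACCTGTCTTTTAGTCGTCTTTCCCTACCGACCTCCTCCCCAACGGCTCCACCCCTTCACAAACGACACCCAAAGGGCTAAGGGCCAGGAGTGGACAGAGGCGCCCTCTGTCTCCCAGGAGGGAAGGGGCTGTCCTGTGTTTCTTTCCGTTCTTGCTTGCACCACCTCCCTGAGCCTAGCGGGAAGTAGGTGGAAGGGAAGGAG

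The S100a11 window (chr3:93520246-93520545, plus strand) held TGAGTCA at 136 and 38 bases before the start and GGGCGG at 64, 52 and 24 bases before it. Of the 9 windows of these 8 genes (S100a16 has a pair), that of S100a11 alone held TGAGTCA, a sequence found in 5.2% of all 32851 promoter windows, and GGGCGG was found in 35.7% of them. TATAAA stood 31 bases before the start in S100a4 (chr3:90603520-90603819, plus strand) and 30 bases before it in S100a8 (chr3:90668821-90669120, plus strand). In S100a9 (chr3:90695672-90695971, minus strand) TATAAA began at the annotated start itself, and 13.6% of all windows held it. The S100a13 window (chr3:90514185-90514484, plus strand) held none of these motifs. These letters are a description of the windows and say nothing of which factors bound there.

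To rank genes, levels were taken per kilobase of merged annotated exon. Merged exons pool all annotated transcripts of a gene, and which of them were expressed was not tested, so the ranking is approximate. On this scale S100a6 was the highest member in each group, at 1430.5 ± 648 CPM per kb in C57 uninjured, 1044 ± 283 in C57 injured, 1426.5 ± 317 in MRL uninjured and 1378 ± 371 in MRL injured tendons (SD, n = 4). S100a10 came second in each group, and its range overlapped that of S100a6 in all groups but MRL uninjured. S100a4 and S100a11 took the next 2 places in both C57 groups and in MRL injured tendons, with overlapping ranges. In MRL uninjured tendons S100a11 took the 6th place, at 248 ± 22.3 CPM per kb, behind S100a1 (269 ± 38.2) and S100a13 (267 ± 61.7). The range of S100a11 overlapped those of S100a1 and S100a13, which also overlapped one another. S100a16 ranged from 122 ± 17 CPM per kb in MRL uninjured to 272 ± 284 in C57 uninjured tendons, where it was 130.2 ± 2.1 (n = 3) without replicate 4. S100a8 and S100a9 were last everywhere, at 2.61 ± 1.23 and 0.464 ± 0.428 CPM per kb in C57 injured tendons. In the annotation, 51.7% of the exon bases of S100a4 also belong to an overlapping gene model, Gm42674, which had 0 counts in all libraries, so the level of S100a4 may be counted only in part.

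**Figure D1:**
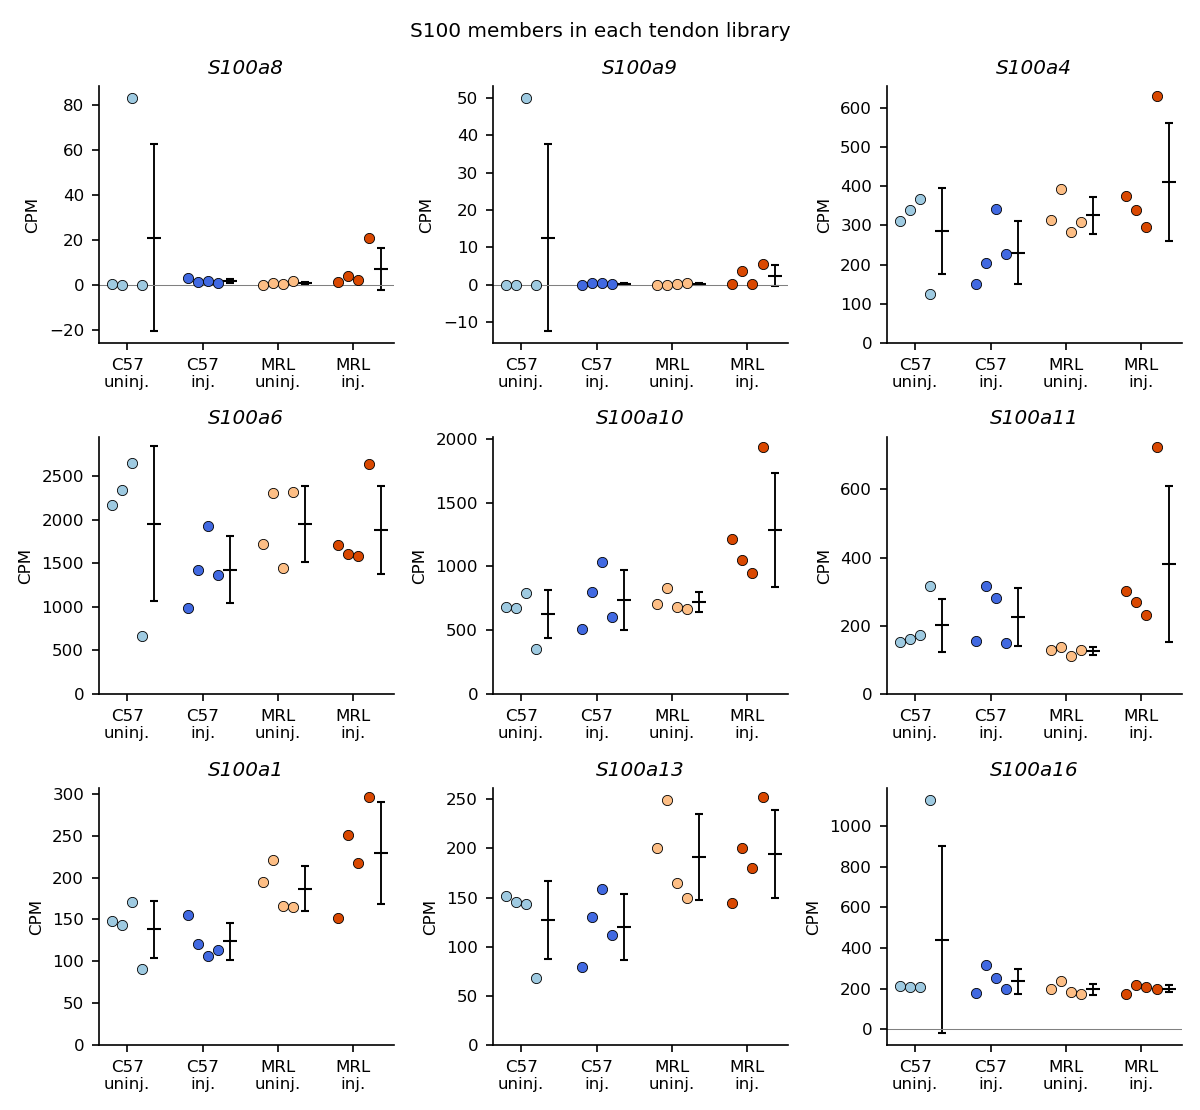
CPM of each member (vertical axis) in the 4 groups (horizontal axis), where each point is a library, the horizontal tick beside it is the group mean and the bar is the SD (n = 4). S100a11 and S100a10 in injured MRL tendons lie above all uninjured MRL libraries, while single C57 uninjured libraries set the group means of S100a8, S100a9 and S100a16.

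Differences were tested with edgeR's quasi-likelihood test over all genes that passed a filter on low counts, and a gene was called past the test at a Benjamini-Hochberg adjusted p under 0.05 with an absolute log2 fold change over 1. After injury 1 of the 8 members tested was called in MRL, S100a11, where 7.41% of all 14274 genes tested were called and 5.25% were called higher. In C57, 0 of 8 members were called, where 1.07% of 14424 genes were, and no member had an unadjusted p under 0.05. That C57 background was unstable, at 155 genes with all libraries, 750 without replicate 4 of the uninjured group, between 10 and 92 without any of the other 7 libraries and 909 with DESeq2. Over the tested members the median was 0.32 on the log2 scale for MRL injury, beside -0.03 over all genes, and -0.27 for C57 injury, beside -0.05. The difference between the strains' responses was called for 0 of 8 members and for 0% of 15947 genes at an adjusted p under 0.05, with 2 members and 1939 genes at an unadjusted p under 0.05, and DESeq2 called 212 genes and no member. S100a9 failed the filter in all 5 comparisons, and S100a8 failed it between the uninjured strains.

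S100a11, which binds the annexin Anxa1 and takes part in membrane repair and growth control, was the member that rose after injury in MRL. It stood at 128, 138, 111 and 129 CPM in the MRL uninjured libraries, and at 303, 271, 231 and 723 CPM in the injured ones. The groups did not overlap, and the library BI-275 was the highest of the injured group by far. Its log2 fold change was 1.60 (SE 0.33, edgeR's quasi-likelihood test, adjusted p = 0.0147), a 3.04-fold rise. Without BI-275 it was 1.09 (SE 0.13, adjusted p = 0.00287), and the call held in all 8 fits that left out a library, with adjusted p between 0.00287 and 0.0473.

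In C57 tendons S100a11 stood at 153, 161, 174 and 317 CPM before injury and at 155, 317, 282 and 151 CPM after it. The groups overlapped, and the highest uninjured value was that of replicate 4, the library with epidermal transcripts. The fitted difference was 0.11 on the log2 scale (SE 0.34, adjusted p = 0.92), and without replicate 4 it was 0.43. With both replicate 4 and BI-181 left out it was 0.62 (SE 0.24, adjusted p = 0.175). The MRL response exceeded the C57 response by 1.43 on the log2 scale (SE 0.50, unadjusted p = 0.0118, adjusted p = 0.344 by edgeR's quasi-likelihood test), which did not pass, and by 0.92 without BI-275.

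S100a11 was also the only one of 7 members whose groups did not overlap between the uninjured strains, where the ranges of 5.04% of all tested genes did not. It was lower in MRL, with a log2 fold change of -0.71 (SE 0.26, adjusted p = 0.621), and did not pass. Without C57 uninjured replicate 4 the difference was -0.37. Between the injured strains the groups overlapped, with a log2 fold change of 0.72 (SE 0.39, adjusted p = 0.318), which was 0.27 without BI-275.

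S100a10 forms a complex with the annexin Anxa2 at the cell membrane, where it also binds plasminogen. It stood at 706, 834, 682 and 665 CPM in MRL uninjured and at 1211, 1049.9, 946 and 1935 CPM in MRL injured libraries. These groups did not overlap. With S100a11 it made 2 of 8 members with separate ranges, where 22.9% of all tested genes had them. Its fitted log2 fold change was 0.84 (SE 0.23, edgeR's quasi-likelihood test, adjusted p = 0.0425), which was past the adjusted p but short of the fold criterion. At the adjusted p alone 2 members, S100a10 and S100a11, were higher, where 7.73% of all genes were, and S100a10 kept an adjusted p under 0.05 in 2 of the 8 fits that left out a library, those without BI-274 and BI-275. In C57 the values were 682, 675, 791 and 352 CPM before and 513, 798, 1036 and 602 CPM after injury, overlapping groups with a log2 fold change of 0.19 (SE 0.30, adjusted p = 0.815). It was 0.0047 without replicate 4 and 0.36 without BI-181. In C57, 0 of 8 members had separate ranges, where 11.6% of genes did.

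**Figure D2:**
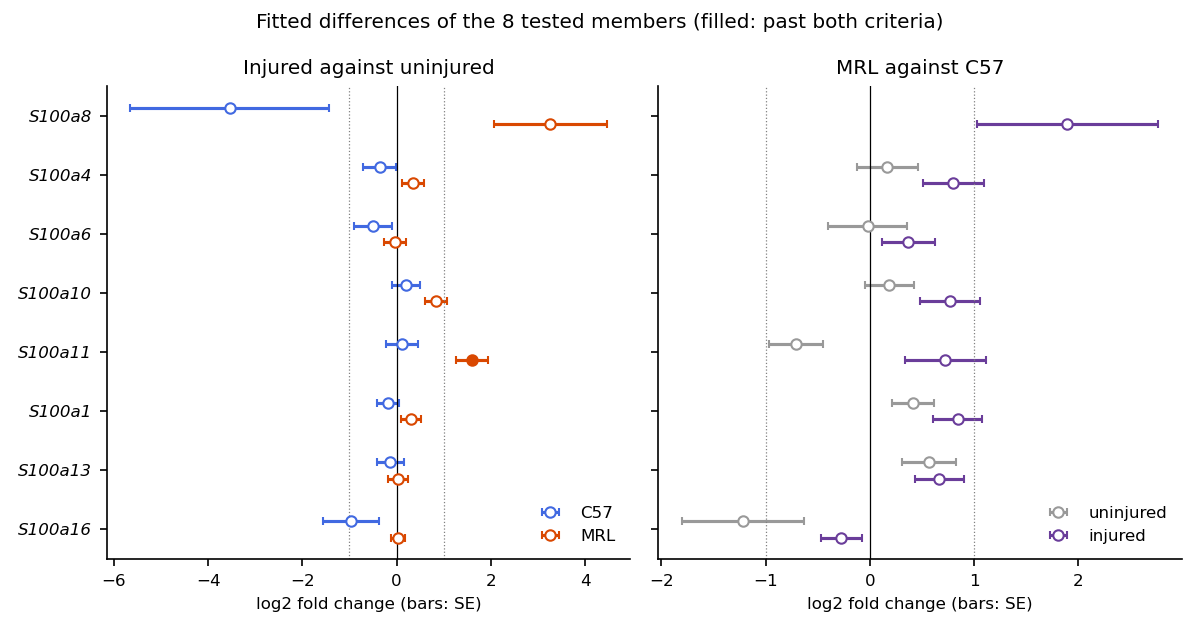
Log2 fold change (horizontal axis, with SE bars) of the 8 tested members (vertical axis), on the left for injury within each strain and on the right for MRL against C57. The filled point, S100a11 in MRL at 1.60, is the value past both criteria, and dotted lines mark a log2 fold change of 1 in either direction.

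S100a4, which binds the non-muscle myosin Myh9 and serves as a fibroblast marker, did not pass in any comparison. It stood at 314, 394, 284 and 309 CPM in MRL uninjured and at 374, 339.7, 297 and 630.2 CPM in MRL injured libraries, which overlapped. The log2 fold change was 0.34 (SE 0.24) in MRL and -0.35 (SE 0.35) in C57, where the groups also overlapped, from 125 to 367 CPM before and from 151 to 342 CPM after injury. Without replicate 4 the C57 value was -0.60 (adjusted p = 0.193 by edgeR's quasi-likelihood test) and without BI-181 it was -0.17, while the MRL value was 0.056 without BI-275. Its lowest value in each C57 group came from the library with epidermal transcripts and the library with muscle transcripts.

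S100a6 (calcyclin), the binding partner after which Cacybp is named, was the most abundant member and did not pass in any comparison. It stood at 1727, 2309, 1449 and 2315 CPM in MRL uninjured and at 1707, 1604, 1583 and 2641 CPM in MRL injured libraries, with overlapping groups and a log2 fold change of -0.04 (SE 0.23), which was -0.25 without BI-275. In C57 it stood at 2169.6, 2342, 2649.6 and 661 CPM before and at 988, 1419.6, 1931 and 1371 CPM after injury. The value of replicate 4 lay below all injured values and the other 3 uninjured libraries above them. The log2 fold change was -0.50 (SE 0.40, adjusted p = 0.598), and it was -0.78 with an adjusted p of 0.075 by edgeR's quasi-likelihood test without replicate 4.

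S100a1, a member best known from striated muscle, where it binds the calcium release channels Ryr1 and Ryr2, did not pass in any comparison. It stood at 156 CPM in BI-181, the highest of its group, and at 121, 106 and 114 CPM in the other injured C57 libraries. Ryr1 stood at 402 CPM in BI-181, and the part of muscle in that value was not tested. The uninjured C57 libraries held 148, 143, 170 and 90.6 CPM. In MRL it stood at 195, 221, 166 and 165 CPM before and at 152, 250.4, 218 and 297 CPM after injury. In both strains the groups overlapped, with a log2 fold change of 0.30 (SE 0.21) in MRL and -0.19 (SE 0.23) in C57. Without BI-275 the first was 0.15, and the second was -0.34 without replicate 4 and -0.30 without BI-181. Between the injured strains it was higher in MRL by 0.84 on the log2 scale (SE 0.23, edgeR's quasi-likelihood test, adjusted p = 0.0759), with ranges that met through BI-181 and BI-270. Without BI-270 the difference was 1.06 (adjusted p = 0.0403), past both criteria.

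S100a13, known for carrying Fgf1 and Il1a out of cells, starts next to S100a1 on the opposite strand. It stood at 152, 146, 144 and 68 CPM in C57 uninjured and at 78.9, 130.02, 159 and 112 CPM in C57 injured libraries. In MRL it stood at 200.3, 249, 165 and 150.1 CPM before and at 145, 201, 179.8 and 252 CPM after injury. The groups overlapped in both strains, and the log2 fold change was 0.03 (SE 0.21) in MRL and -0.13 (SE 0.29) in C57. It turned sign without BI-275 in MRL, to -0.12, and without BI-181 in C57, to 0.0497, and was -0.33 in C57 without replicate 4.

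Between the injured strains 7 of the 8 tested members were fitted higher in MRL and 0 were called, where 3.43% of 14626 genes were. The median log2 fold change was 0.75 over the members and -0.06 over all genes tested. It was 0.90 over the 12 tenocyte and fibroblast markers, of which 2 (Lum and Scx) were called, both higher in MRL. Over the 12 macrophage markers it was -0.71, and 4 (C1qa, C1qb, C1qc and Csf1r) were called, all lower in MRL. Of the 8 fits that left out a library, Scx was called in 7, Lum and C1qb in 5, C1qc and Csf1r in 2 and C1qa in 1. Between the uninjured strains the medians were 0.60 over the tenocyte and fibroblast markers, -0.15 over the macrophage markers and 0.17 over the 7 members tested. The part of these cell types in the members' values was not tested. Values ran from -0.27 (SE 0.20) for S100a16 to 1.90 (SE 0.87) for S100a8, and S100a4 (0.80, SE 0.29), S100a10 (0.77, SE 0.29) and S100a13 (0.67, SE 0.24) lay between them. The S100a8 value rested on BI-275, without which it was 0.45 (SE 0.66). For each of the 8 members the ranges of the injured groups overlapped, where those of 15.8% of all genes did not. The library BI-275 was the highest of its group for 8 of the 9 members. In it the 9 members together took 0.65% of all counts, against 0.357% to 0.408% in the other injured MRL libraries. Between the uninjured strains 0 of 7 members were called, where 0% of 14055 genes were by edgeR (1106 at an unadjusted p under 0.05) and DESeq2 called 101 genes and no member.

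S100a16, a broadly expressed member, stood apart in a single library. It stood at 214, 207 and 210.1 CPM in C57 uninjured replicates 1 to 3 and at 1129.9 CPM in replicate 4. In C57 injured libraries it ran from 180.2 to 316 CPM, in MRL uninjured libraries from 175 to 236 CPM and in MRL injured libraries from 175 to 218 CPM. S100a14, a neighbouring S100 gene of epithelia, stood at 302 CPM in replicate 4 and at 7.1 CPM at most in any other library. The fitted log2 fold change of S100a16 after injury in C57 was -0.96 (SE 0.59, adjusted p = 0.477), and without replicate 4 it was 0.14. In MRL it was 0.02 (SE 0.15, adjusted p = 0.933).

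**Figure D3:**
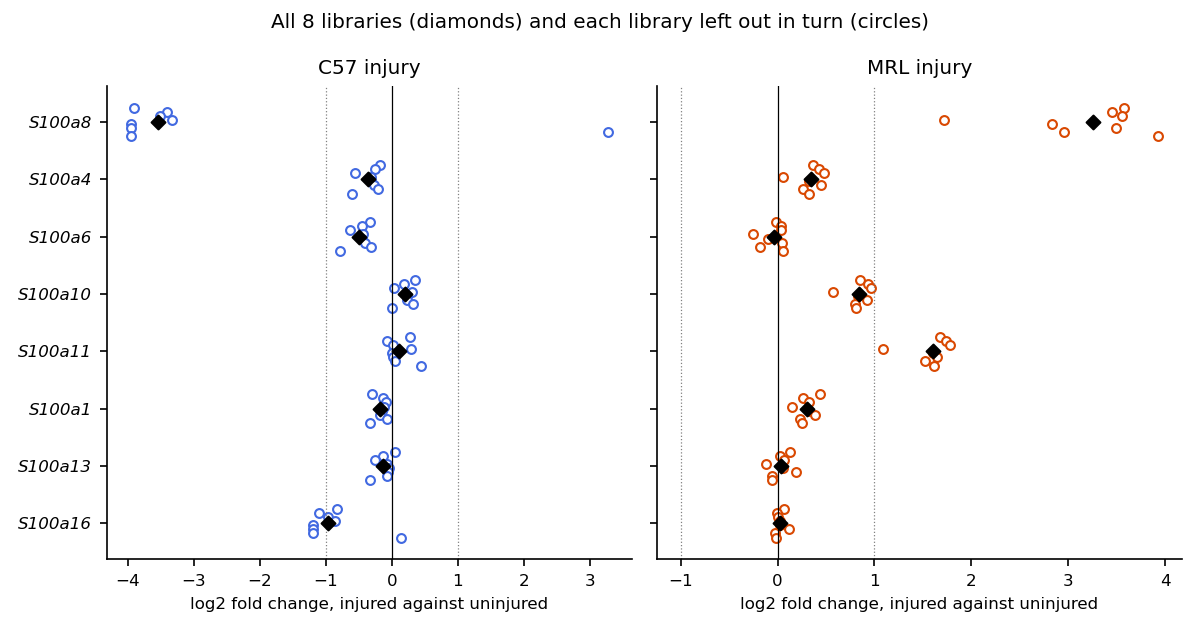
Log2 fold change after injury (horizontal axis) of the 8 tested members (vertical axis) in C57 and MRL, with all 8 libraries (diamonds) and with each library left out in turn (circles). In C57 the circles of S100a8 and S100a16 cross 0 when a single uninjured library is left out, and in MRL all circles of S100a11 stay above 1.

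S100a8 and S100a9, the alarmin pair also called calprotectin, were the least abundant members. S100a9 had 8 counts or fewer in 13 of the 16 libraries, while S100a8 had 15 or more in 11. The limit that a count of 0 allows was 0.126 to 0.241 CPM (3 counts per library, counting error only). S100a8 stood at 0.537, 0, 83.3 and 0 CPM in C57 uninjured replicates 1 to 4, and S100a9 at 50.1 CPM in replicate 3 and at 0 in the other 3. Replicate 3 held 68.1% of the S100a8 CPM and 81.9% of the S100a9 CPM summed over all 16 libraries.

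In C57 injured libraries S100a8 stood at 3, 1.36, 1.82 and 1.06 CPM and S100a9 at 0, 0.308, 0.519 and 0.142 CPM. Every injured library was above 3 of the 4 uninjured libraries for S100a8 and below the remaining one. The fitted log2 fold change of S100a8 in C57 was -3.54 (SE 2.10, adjusted p = 0.463), and without replicate 3 its sign turned, to 3.27. Neither value passed, so the direction for C57 depended on that library. The MRL response exceeded that of C57 by 6.75 on the log2 scale (SE 2.67, unadjusted p = 0.0235, adjusted p = 0.357 by edgeR's quasi-likelihood test), and the difference was -0.08 without that library.

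In MRL S100a8 stood at 0, 1.08, 0.298 and 1.61 CPM before and at 1.18, 4.04, 2.16 and 20.8 CPM after injury. The groups overlapped through the injured library BI-270, and BI-275 was the highest. The log2 fold change was 3.26 (SE 1.20, adjusted p = 0.108 by edgeR's quasi-likelihood test), and DESeq2 gave an adjusted p of 0.0189, past both criteria. Without BI-275 the edgeR value was 1.72 (SE 1.16, adjusted p = 0.406), and the injured mean fell from 7.05 to 2.46 CPM. S100a9 stood at 0, 0, 0.179 and 0.402 CPM before and at 0.084, 3.76, 0.0882 and 5.57 CPM after injury, so only BI-272 and BI-275 lay above the uninjured range. An exact two-sided permutation test on its CPM gave p = 0.286, where the smallest p that 4 against 4 libraries allow is 0.0286. DESeq2 gave S100a9 an adjusted p of 0.0458.

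Of 12 neutrophil markers measured beside the pair, 5 (Ly6g, Ngp, Ltf, Elane and Mpo) stayed under 1 CPM in every library. Among C57 uninjured libraries 5 of the 12, Csf3r, Lcn2, Mmp8, Mmp9 and Retnlg, were highest in replicate 3, where Mmp9 stood at 20.4 CPM and Csf3r at 3.16 CPM. Cxcr2, another of the 12, was highest in replicate 4, at 19.1 CPM against 1.31 CPM in replicate 3. The 12 markers summed to 44.1 CPM there and to between 5.96 and 27.1 CPM in the other 3 libraries. The 12 epidermal markers summed to 799 CPM in replicate 3, against 179 and 157 CPM in replicates 1 and 2 and 79898 CPM in replicate 4. In BI-275 the neutrophil markers summed to 693 CPM, of which Lcn2 made up 637 CPM, against 94.8 to 140.04 CPM in the other injured MRL libraries. Lcn2, an iron-scavenging protein of neutrophils and epithelia, was called higher in both strains, by 2.85 in C57 (adjusted p = 0.0353) and by 3.05 in MRL (adjusted p = 0.0491), though the C57 call was kept in 2 of the 8 fits that left out a library and the MRL call in 0 of 8. The part of neutrophils or epidermis in the S100a8 and S100a9 values was not tested.

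Macrophage markers rose after injury in both strains. Of 12, 6 were called higher in each, where 0.908% of all genes were called higher in C57 and 5.25% in MRL, among them Lyz2 (2.61 in C57 and 2.38 in MRL), Cd68 (2.56 and 1.83) and Ccr2 (4.97 and 6.19). Over the 12 markers the median log2 fold change was 1.99 in C57, and it was 1.06 in MRL. The C57 calls of Lyz2 and Cd68 were kept in 4 and 5 of the 8 fits that left out a library. Those of Ccr2 in C57, and of Lyz2, Cd68 and Ccr2 in MRL, were kept in all 8. Of the remaining C57 calls, Adgre1 was kept in 2 fits, Mrc1 in 3 and C1qa in 3. Of the remaining MRL calls, Adgre1 was kept in 4, Itgam in 5 and Fcgr1 in all 8. The 12 markers together went from between 1184 and 1826 CPM to between 4827 and 8749.5 CPM in C57, and from between 1121 and 1805 CPM to between 3742 and 6854 CPM in MRL. Within the injured MRL group the sum was 6854 CPM in BI-270 and 6183 CPM in BI-275, which had the highest Lyz2 (5250.4 CPM) along with the highest S100a10 and S100a11, and the part of macrophages in those values was not tested.

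**Figure D4:**
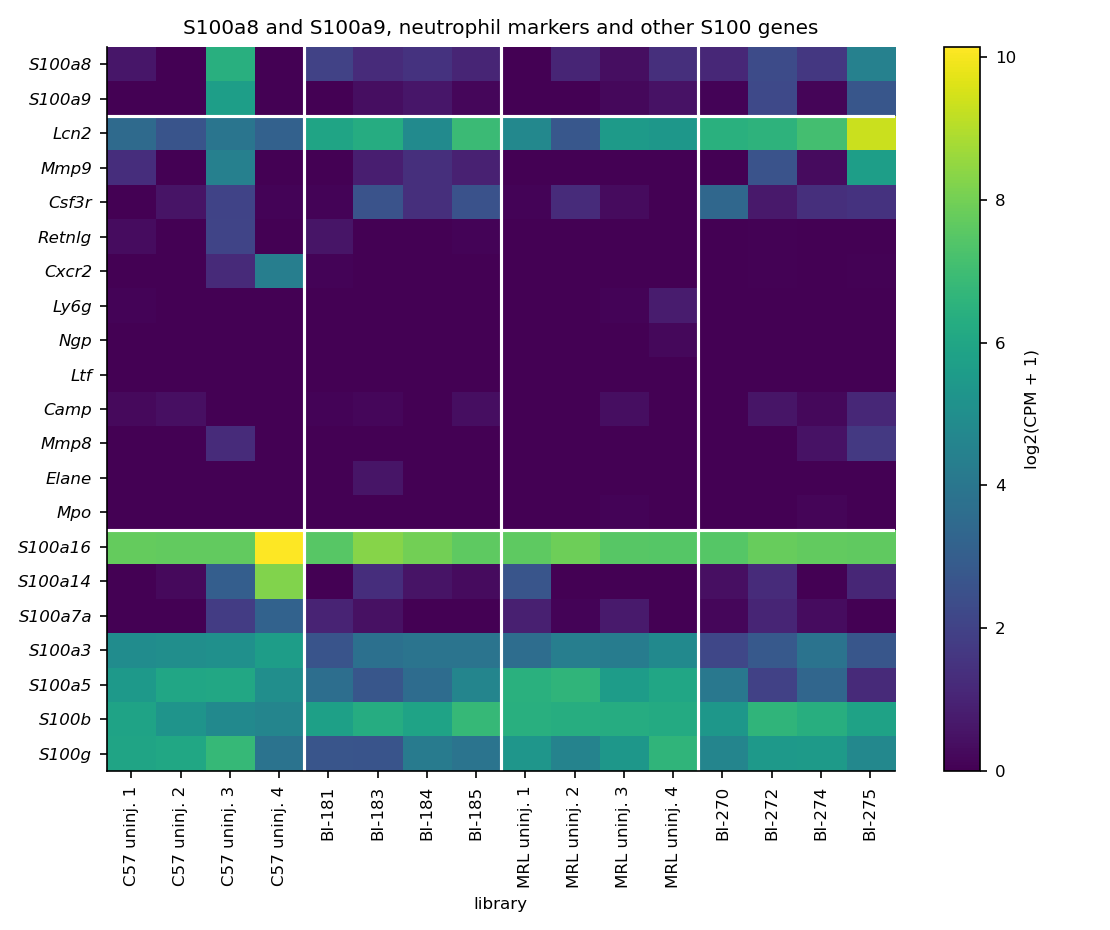
Level of S100a8 and S100a9, 12 neutrophil markers, S100a16 and 6 other S100 genes (rows) in the 16 libraries (columns, in the order C57 uninjured, C57 injured, MRL uninjured, MRL injured), as log2(CPM + 1) by colour. S100a8 and S100a9 stand out in C57 uninjured replicate 3 and in BI-275, S100a14 and S100a16 in C57 uninjured replicate 4, and S100a5 is darker in both injured groups.

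Of 20 partners and receptors of these proteins, 15 were tested in MRL and 16 in C57 after injury. In MRL 2 were called higher and 0 lower, where 5.25% of all genes were called higher, and in C57 1 was called higher and 0 lower, where 0.908% of all genes were called higher. Over the tested partners the median was 0.43 in MRL and 0.05 in C57, on the log2 scale. Cd36, a scavenger receptor that binds the S100a8 and S100a9 complex with fatty acids, rose by 1.74 in C57 (adjusted p = 0.0484) and by 1.75 in MRL (adjusted p = 0.00921) and is also carried by macrophages. Its C57 call was kept in 1 of 8 fits that left out a library and its MRL call in all 8. Cd14, a co-receptor of Tlr4 and likewise a macrophage gene, rose by 1.36 in MRL (adjusted p = 0.0275, kept in 2 of 8 such fits). Tlr4 itself did not pass (-0.37 for MRL, -0.49 for C57), with group means between 43.7 and 60.8 CPM. Ager was at or under 2.98 CPM in every library.

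Among the intracellular partners, Cacybp had a log2 fold change of 0.99 in MRL (adjusted p = 0.00776), just short of the fold criterion, and 0.18 in C57. Myh9 stood at 0.77 (adjusted p = 0.0387) in MRL, short of the fold criterion, and at 0.84 in C57. Anxa2 was at 0.63 (SE 0.18, adjusted p = 0.0508) in MRL and at 0.06 in C57. Anxa1, the partner of S100a11, had 0.50 in MRL (adjusted p = 0.116) and -0.17 in C57. Fgf1, cargo of S100a13, had a log2 fold change of 2.14 in C57 (adjusted p = 0.184) and of -0.72 in MRL (adjusted p = 0.579), and did not pass in any comparison. Il1a, likewise cargo of S100a13, failed the filter in all comparisons but that of the strains' responses, where it did not pass.

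The levels of S100a10 and Anxa2 ran together. Across the 16 libraries, which span all 4 groups, Anxa2 had the highest Pearson correlation with S100a10 of 14044 genes compared (r = 0.97 on log2 CPM), and without C57 uninjured replicate 4 it was again the highest (r = 0.97, 15 libraries). Alg5 and Emp3 came next (r = 0.96 and 0.95). For S100a11 the 3 genes most alike were Copz1, Cks2 and Prdx1 (r = 0.95, 0.95 and 0.94), and for S100a4 they were Calm2, Gng11 and Cfap36 (r = 0.92, 0.90 and 0.89). Gng11 also led for S100a13 (r = 0.93), ahead of Gm17455 and Selenom (r = 0.92 and 0.91). S100a6 ran most like Crip1, B9d2 and Gm28043 (r = 0.95, 0.91 and 0.91), S100a1 most like Tmed1, Toporsos and Srp14 (r = 0.90, 0.89 and 0.88), S100a8 most like Hdc, Slpi and Adgra1 (r = 0.84, 0.83 and 0.82), and S100a16 most like Ctnnbip1, Gltp and Limk2 (r = 0.95, 0.94 and 0.93). Without replicate 4 the first gene was another for S100a1, S100a4, S100a6, S100a8, S100a13 and S100a16, with Slpi for S100a8 (r = 0.89), Npy for S100a6 (r = 0.95) and Dnajc13 for S100a16 (r = 0.80). These values are descriptions over libraries that share group and tissue make-up.

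Between members the highest correlations over 16 libraries were those of S100a4 with S100a6 (r = 0.89) and with S100a13 (r = 0.89). S100a1 and S100a13, whose promoter windows overlap, had r = 0.77, and r = 0.57 after each group's mean was taken out. S100a10 and S100a11, which both had separate ranges in MRL, had r = 0.57, r = 0.88 without C57 uninjured replicate 4, and r = 0.37 over all 16 after each group's mean was taken out. The lowest value was that of S100a6 with S100a16, at r = -0.63, and it was 0.05 without that library.

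**Figure D5:**
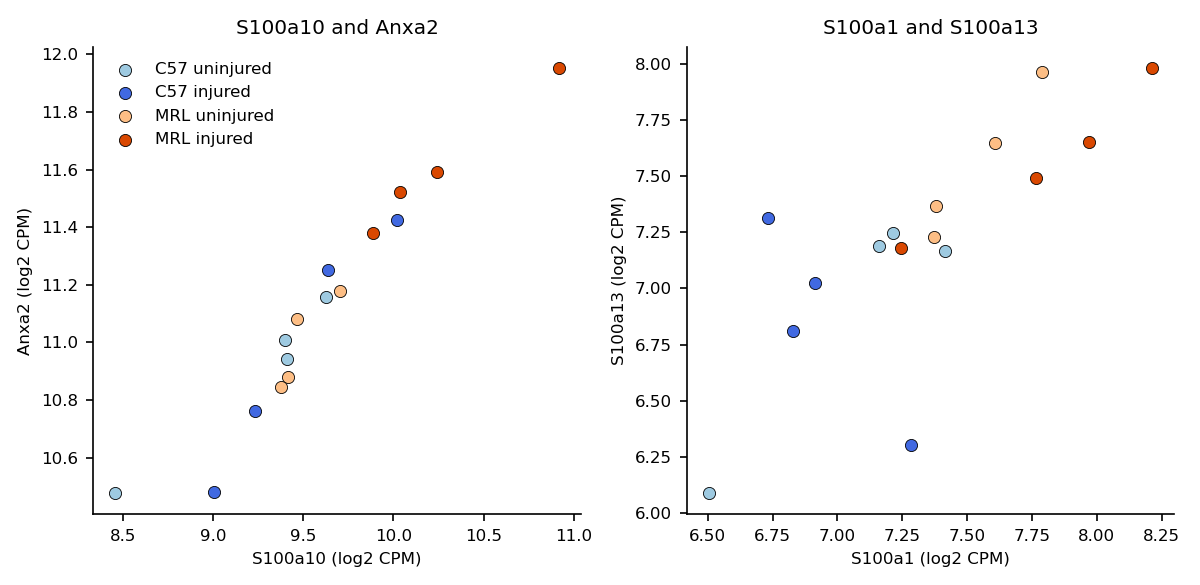
Log2 CPM of Anxa2 against S100a10 (left) and of S100a13 against S100a1 (right), where each point is a library coloured by group. The 16 libraries lie close to a line on the left (r = 0.97) and scatter more on the right (r = 0.77).

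Of 7 further S100 genes in the fixed list, 4 were tested for injury in each strain. In MRL 1 of these, S100a5, was called lower, where 307 of 14274 genes were, and in C57 0 were called. S100a5 stood at 86.4, 98.6, 47.9 and 63.9 CPM in MRL uninjured and at 15.8, 2.9, 9.26 and 1.28 CPM in MRL injured libraries. These groups did not overlap, where 22.9% of all tested genes had separate ranges. The log2 fold change was -3.33 (SE 0.65, edgeR's quasi-likelihood test, adjusted p = 0.0114), kept in all 8 fits that left out a library. In C57 it stood at 42.8, 62.6, 67.2 and 31.3 CPM before and at 11.6, 5.55, 10.96 and 23.4 CPM after injury. These groups did not overlap either, where 11.6% of genes had separate ranges. The C57 log2 fold change was -2.02 (SE 0.44, adjusted p = 0.0641 by edgeR's quasi-likelihood test), which did not pass. The difference between the strains was -1.36 (adjusted p = 0.533). S100a5 lies between S100a4 and S100a6 on the chromosome, and neither of those neighbours passed.

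S100a3 had values of -1.72 in C57 (adjusted p = 0.0528) and -1.40 in MRL (adjusted p = 0.0674), and S100g of -2.60 in C57 (adjusted p = 0.0937) and -0.55 in MRL (adjusted p = 0.414). S100b, a Schwann cell and glial member, stood at 36.5 ± 15.4 CPM in C57 uninjured and at 74 ± 25.7 CPM in C57 injured tendons (SD, n = 4), with a log2 fold change of 0.97 (adjusted p = 0.215). In MRL it stood at 77.6 ± 4.2 CPM before and at 68.6 ± 25.8 CPM after injury (-0.17, adjusted p = 0.682). Uninjured MRL libraries lay above all uninjured C57 libraries for S100b, by 1.07 on the log2 scale (unadjusted p = 0.0025, adjusted p = 0.621 by edgeR's quasi-likelihood test), which did not pass. The 8 Schwann cell markers summed to between 33.9 and 832 CPM in injured C57 and to between 15.5 and 23.2 CPM in injured MRL libraries, while S100b had a log2 fold change of -0.14 between the injured groups (adjusted p = 0.836). S100a7a reached 8.23 CPM, in C57 uninjured replicate 4, and S100z had a count of 1 in all libraries together.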

How the data were processed

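Tendon RNA from the 16 mice was sequenced as single reads of 100 bases. The values are counts per gene symbol that the authors deposited without normalisation. Per the labels the authors used Trimmomatic 0.36, STAR 2.5.2b, featureCounts from Subread 1.5.0p3 and DESeq2 1.14.1 with the genome build GRCm38.p5. The annotation and strand setting are not given in the sources used here, so reads of overlapping genes may be lost or shared. The labels and the study methods name different library kits, and whether the kit was the same in all groups was not tested.

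Counts were tested with edgeR 4.0.16 (filterByExpr, TMM normalisation, robust quasi-likelihood fits, Benjamini-Hochberg adjustment over all genes tested), with 8 libraries in each comparison and all 16 for the difference between the strains' responses. Called genes had an adjusted p under 0.05 and, outside that difference, an absolute log2 fold change over 1. CPM are on TMM-adjusted library sizes. Scripts were tested on simulated data. Total counts from 12552424 to 23741648 put the limit of a count of 0 at 0.126 to 0.241 CPM.

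Genes named were the 9 members, all S100 genes of the list, called genes of the lists (up to 4 a list and comparison), known partners, and the genes most like each member (highest Pearson r of log2 CPM with a prior count of 2, among genes of at least 1 CPM on average). Genes of other tissues were named beside results they bear on. Members and lists were chosen with earlier results of these data known. Alternatives were other size factors, DESeq2 1.42.0, no filter, each library left out, a fit of all 16 libraries and a replicate block. Leaving out C57 uninjured replicates 3 and 4, or BI-181 and C57 uninjured replicate 4, was chosen after seeing the data. Exact permutation tests used scipy 1.17.1. No libraries were identical, and no column was left out.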

Additional observations from a re-analysis of the deposited data

Results flagged for a closer look

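Of 61 sets of 4 libraries examined, each holding a single S100 gene in 1 group, 11 held a library whose gap to the nearest other, divided by the range of the group, was over Dixon's 95% critical value for 4 samples. For normally distributed values chance marks about 1 set in 20, a rate that does not hold for sets of 3 zeros and a value above 0, which are always marked, as for S100a9 in C57 uninjured, S100a14 in MRL uninjured and S100z in C57 injured tendons.

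In C57 uninjured replicate 3, S100a8 stood at 83.3 CPM (1080 counts) and S100a9 at 50.1 CPM (649 counts), against 0.537 CPM and 0 CPM at most in the other C57 uninjured libraries. In C57 uninjured replicate 4, S100a16 stood at 1129.9 CPM, S100a14 at 301.5 CPM and S100a11 at 317 CPM, above the other 3 libraries, and S100a13 at 68 CPM, below them. The injured MRL library BI-275 was highest for S100a6 (2641 CPM), S100a8 (20.8 CPM) and S100a11 (723 CPM). S100a14 stood at 5.3 CPM (80 counts) in MRL uninjured replicate 1 and at 0 in the other uninjured MRL libraries. S100z stood at 0.0616 CPM in BI-183, a single count.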

How the results depend on the processing

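Members called stayed at 0 in C57, for the difference between the strains' responses and between the uninjured strains under every alternative run. In MRL the number was 1 throughout except with DESeq2, which called 3 (S100a8, S100a9 and S100a11). Between the injured strains it ranged from 0 to 1 when a library was left out, the call being S100a1 without BI-270. S100a11 in MRL was called under every alternative, at log2 fold changes from 1.09 to 1.78. S100a10 in MRL had an adjusted p from 0.0273 to 0.109 when a library was left out, and 0.0822 in a fit of all 16 libraries.

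Signs turned for members that were not called, and the cause was not tested. With each library left out in turn, log2 fold changes in C57 ranged from -3.96 to 3.27 for S100a8, from -0.066 to 0.43 for S100a11, from -0.33 to 0.0497 for S100a13 and from -1.20 to 0.14 for S100a16. In MRL they ranged from -0.25 to 0.0544 for S100a6, from -0.12 to 0.19 for S100a13 and from -0.0314 to 0.12 for S100a16. The difference between the strains' responses ranged from -0.076 to 7.44 for S100a8, from -0.0415 to 0.31 for S100a13 and from -0.16 to 1.18 for S100a16. Between the uninjured strains it ranged from -0.0694 to 0.31 for S100a4 and from -0.30 to 0.16 for S100a6. Without C57 uninjured replicates 3 and 4, a choice made after seeing the data, S100a8 was at 2.76 and S100a16 at 0.19 in C57, S100a16 at -0.12 for the difference between responses and S100a4 at -0.00021 between the uninjured strains. Without BI-181 and C57 uninjured replicate 4, S100a16 was at 0.28 in C57 and at -0.26 for the difference.

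Counts over all genes moved more. C57 injury called 155 genes, 909 with DESeq2, 367 in a fit of all 16 libraries, 867 without BI-181 and C57 uninjured replicate 4, 750 without C57 uninjured replicate 4 and between 10 and 92 without any of the other 7 libraries. MRL injury called 1057, 1818 with DESeq2 and from 689 (MRL uninjured replicate 1) to 1260 with a library left out. Between the injured strains 502 were called, 1488 with DESeq2, 227 in a fit of all 16 and from 231 (BI-185) to 481 with a library left out. There the split was 227 higher and 275 lower, and 183 and 373 with total counts as library sizes, which moved the median of all genes by -0.13 and that of C57 injury by 0.13. The uninjured replicate numbers did not pair the samples (correlations of same-numbered deviations from -0.262 to 0.0157). With a replicate block 0 members and 0 genes were called between the uninjured strains, and S100a6 was at 0.0882. Adjusted p that DESeq2 did not give, for S100a8, S100a9 and S100a16, were left out. A count of 0 allows up to 0.241 CPM in the shallowest library, so S100a8 or S100a9 at that level or below can be listed at 0.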
